A study of Nothobranchius furzeri with 15 samples.

Results

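The transcripts described here were abundant in the liver of the turquoise killifish Nothobranchius furzeri and were not among the most abundant of its brain or skin. An entry of the deposited transcript catalogue was a member if its mean level put it among the 100 highest entries of liver and outside the 100 highest of brain and of skin. The rule gave 62 members of 18311 catalogue entries. The other 38 of the 100 highest liver entries were shared, 22 with the 100 highest of brain, 31 with those of skin and 15 with both. Levels were CPM, counts scaled to a library total of 1000000, averaged over the 5 libraries of a tissue. Those means chose the members, so the height of liver over brain and skin is given below as a description, with no test.

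RNA sequencing had been done on 15 samples, 5 each of brain, liver and skin, which the series describes as biological replicates. All came from fish of the GRZ strain, a short-lived inbred laboratory strain, at 12 weeks of age, and the labels give no treatment, no genotype beyond the strain and no sex. The libraries are called here by their tissue and the number in their label: brain and liver 10, 11, 13, 14 and 15, and skin 5, 6, 7, 13 and 14. Library totals in the catalogue ranged from 17653543 to 30801799 counts.

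Liver is the main source of the proteins of blood plasma, among them carriers of lipid, iron, copper and vitamins, clotting factors, protease inhibitors and complement components. It also holds the enzymes of gluconeogenesis, amino acid breakdown, bile acid synthesis and detoxification. In egg-laying vertebrates the liver of mature females makes the yolk precursors, and in many bony fishes exocrine pancreas lies beside or within it. A few secreted proteins commonly dominate the messenger RNA of this organ. The deposited files give each catalogue entry a zebrafish gene identifier and no gene name, and neither kind of identifier matched the reference table of killifish genes (0 matches). Members are therefore given by identifier, with no role assigned to any of them, and the 15 gene lists drawn up for liver functions and for other cell types could not be matched. For the same reason the labelled tissues could not be checked against their defining markers.

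The 62 members held a large part of the liver libraries. Their summed counts were 36.4% of the library in liver 10, 32.9% in liver 11, 29.0% in liver 13, 32.5% in liver 14 and 28.2% in liver 15, a mean of 31.8% ± 3.31 (SD, n = 5). In brain they summed to between 0.454% and 0.607% of a library, with a mean of 0.520% ± 0.0560 (SD, n = 5). Skin libraries held between 0.698% and 0.832%, with a mean of 0.744% ± 0.0549 (SD, n = 5). All 100 highest liver entries together held 46.6% ± 4.10 of the liver counts (SD, n = 5), and the 10 highest members alone held 16.0% ± 2.18. No library of one tissue overlapped those of another in the members' share, which for liver follows largely from the rule. The separation of skin from brain rests on the members nearest to the skin limit of the rule. Nofu_gene_3_0014967, Nofu_gene_3_0015479 and Nofu_gene_3_0018984 stood at 1289, 1122 and 1068 CPM in skin, against 665, 400 and 14.9 CPM in brain. Without them the mean share would be slightly higher in brain than in skin. The sum was higher in skin than in brain, but the median member stood at 0.236% of its liver level in skin and 0.302% in brain. That order of the medians is in CPM and turned with the scaling for library composition described below. There the median log2 ratio was 9.82 for liver over brain and 9.48 for liver over skin. Between brain and skin the separation of the shares did not hold in the genome table, which was scaled by library totals only. There the same rule gave 63 gene models with 0.217% to 0.386% of brain counts and 0.191% to 0.245% of skin counts. Brain and skin overlapped there, and the brain mean of 0.282% was the higher, against a skin mean of 0.225%. In liver these models held 32.7% ± 2.58 (SD, n = 5). In such bulk samples, fewer cells of a type and less RNA per cell cannot be told apart.

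**Figure D1:**
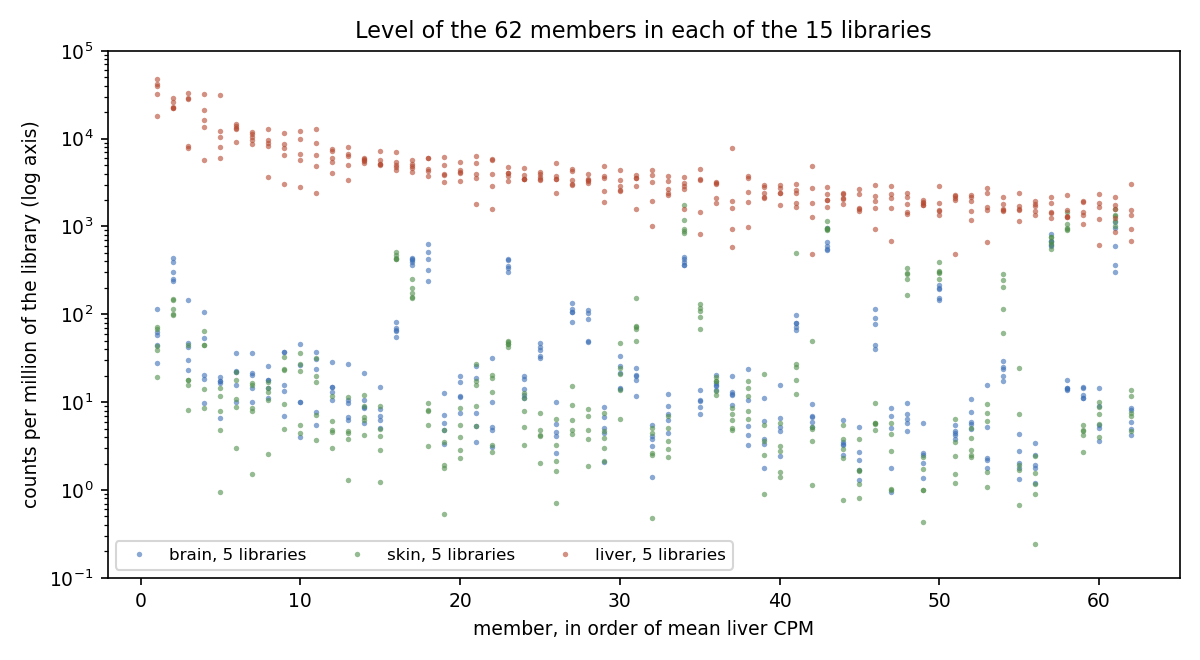
Level of each of the 62 members in each of the 15 libraries, in CPM on a log axis, with the members in order of their mean liver level. Red points are the 5 livers, blue the 5 brains and green the 5 skins; the liver means run from 35841 down to 1507 CPM, and most brain and skin points lie more than 100 times lower.

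The mean liver level of a member ran from 1507 to 35841 CPM, with a median of 2994 CPM. Nofu_gene_3_0002458, with the zebrafish identifier ENSDARG00000012694, had the highest liver level by CPM, which does not correct for length. It stood at 47750 CPM in liver 10, 39393 in liver 11, 32451 in liver 13, 41520 in liver 14 and 18094 in liver 15. Liver 15 was the low library, and the other 4 lay closer together. In brain it lay between 27.9 and 115 CPM and in skin between 19.3 and 72.2 CPM. The ratio of its mean CPM was 9.19 on the log2 scale for liver over brain and 9.53 for liver over skin. With TMM scaling, edgeR's correction for library composition, its fitted log2 fold changes were 10.72 (SE 0.61) and 10.36 (SE 0.60). Over the members the median log2 ratio of liver over brain was 8.37 in CPM and 9.82 with TMM, and that of liver over skin 8.73 and 9.48. The percentages of liver given below are in CPM and would be lower with TMM, more so in brain than in skin.

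The next members by liver level differed in how even they were over the liver libraries. Nofu_gene_3_0006506 (ENSDARG00000053973) stood at 22355, 28811, 22698, 26308 and 22458 CPM in livers 10, 11, 13, 14 and 15. All livers were close together for this entry. Nofu_gene_3_0008355 (ENSDARG00000012609) stood at 8227, 27904, 29113, 33449 and 7737 CPM in the same order. Livers 10 and 15 were low for it and the other 3 were high. Nofu_gene_3_0018634 (ENSDARG00000042993) gave 21217, 13724, 5693, 16459 and 32454 CPM, with liver 15 highest and liver 13 lowest. Nofu_gene_3_0017689 (ENSDARG00000043360) gave 31711, 12081, 8000, 10530 and 5958 CPM, and liver 10 stood well above the rest.

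The remaining 5 of the 10 highest members lay between 7472 and 12730 CPM on average. Nofu_gene_3_0006518 gave 12855, 13297, 14471, 13798 and 9229 CPM in livers 10, 11, 13, 14 and 15, and its neighbour in the catalogue numbering, Nofu_gene_3_0006517, gave 12017, 9717, 11294, 10533 and 8767 CPM. Both were lowest in liver 15. Nofu_gene_3_0008339 gave 8873, 9527, 12768, 8188 and 3674 CPM and was also lowest there. Nofu_gene_3_0002522, at 7801, 6433, 3044, 8744 and 11555 CPM, and Nofu_gene_3_0000019, at 9950, 5682, 2811, 6624 and 12295 CPM, were instead highest in liver 15 and lowest in liver 13.

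Levels of different entries can be compared only per length, for which the deposited RPKM values (reads scaled by gene length and by the library's counted reads) were used. Per length the order at the top changed. Nofu_gene_3_0018634 came first at 13375 ± 7387 RPKM (SD, n = 5), followed by Nofu_gene_3_0017689 at 12763 ± 9684, Nofu_gene_3_0006506 at 12263 ± 1455 and Nofu_gene_3_0008355 at 11304 ± 6543 RPKM. The differences between these 4 means were smaller than the SDs of all but Nofu_gene_3_0006506, so they are not ordered among themselves. Nofu_gene_3_0000924, the shortest member with a length of 541 bases, followed at 7861 ± 1396 RPKM, although it was not among the 10 highest by CPM. Nofu_gene_3_0002458, first by CPM and 5400 bases long, was seventh per length at 6637 ± 2097 RPKM. The lowest member per length was Nofu_gene_3_0002477 at 242 RPKM, and the median over the members was 1199 RPKM.

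At the liver limit, the last members were Nofu_gene_3_0004069 at rank 93 with 1536 CPM, Nofu_gene_3_0014967 at rank 95 with 1517 CPM and Nofu_gene_3_0000506 at rank 97 with 1507 CPM. The first entries left out, among those outside the highest of brain and skin, were Nofu_gene_3_0000933 at rank 101 with 1448 CPM, Nofu_gene_3_0003477 at rank 104 with 1393 CPM and Nofu_gene_3_0014928 at rank 106 with 1363 CPM. At the brain limit, the members nearest to it stood at 678, 665 and 661 CPM in brain (Nofu_gene_3_0012359, Nofu_gene_3_0014967 and Nofu_gene_3_0007334). The nearest entries left out there were farther off, at 1218, 1443 and 2145 CPM in brain. One of them, Nofu_gene_3_0000917, had the second highest liver level by CPM, 29870, and its brain level of 1218 CPM kept it out. At the skin limit, the nearest members stood at 1289, 1122 and 1068 CPM in skin (Nofu_gene_3_0014967, Nofu_gene_3_0015479 and Nofu_gene_3_0018984). The nearest entries left out stood at 1504, 1540 and 1604 CPM.

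Outside the liver most members were present at a small fraction of their liver level, which differed widely between members. Brain stood under 1% of the liver mean for 46 of the 62 members and under 10% for 58, with a median of 0.302% and an interquartile range from 0.203% to 1.03%. Skin stood under 1% for 48 members and under 10% for 54, with a median of 0.236% and an interquartile range from 0.124% to 0.596%. No member was at 0 in any library. The lowest count was 5 reads in any library and 11187 reads in any liver, so that counting error is small in liver and larger for the lowest brain and skin values.

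A set of 42 members lay under 1% of liver in both brain and skin. Their liver means spanned 23.8-fold, while their brain level stayed between 0.113% and 0.830% of liver (median 0.252%) and their skin level between 0.0568% and 0.714% (median 0.150%). The 1% limit that picks the 42 narrows the range of these percentages by itself. Whether the low brain and skin counts come from cells of these tissues, from blood or from liver RNA was not tested.

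The other 20 members had a level above 1% of liver in brain or in skin, and 8 of them were above 10%. Nofu_gene_3_0014967 (ENSDARG00000051783) reached 43.9% of its liver level in brain and 85.0% in skin. In liver it stood at 1233, 1743, 2172, 1573 and 863 CPM (livers 10, 11, 13, 14 and 15), in brain at 363, 592, 950, 303 and 1119 CPM (brains 10, 11, 13, 14 and 15), and in skin at 1599, 1003, 1165, 1317 and 1363 CPM (skins 5, 6, 7, 13 and 14). Its 3 tissues overlapped, so that its place among the members rests on ranks and not on a separation of the libraries. Nofu_gene_3_0018984 reached 69.4% in skin but 0.971% in brain, and Nofu_gene_3_0012359 reached 41.8% in brain and 41.6% in skin. In 61 of the 62 members every liver was above every brain, and in 59 every liver was above every skin. The rule chose members by their high liver means, so these counts are a description. No share over all entries is given beside them. Nofu_gene_3_0014967 was the exception for brain, and Nofu_gene_3_0014967, Nofu_gene_3_0015479 and Nofu_gene_3_0018984 were those for skin.

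**Figure D2:**
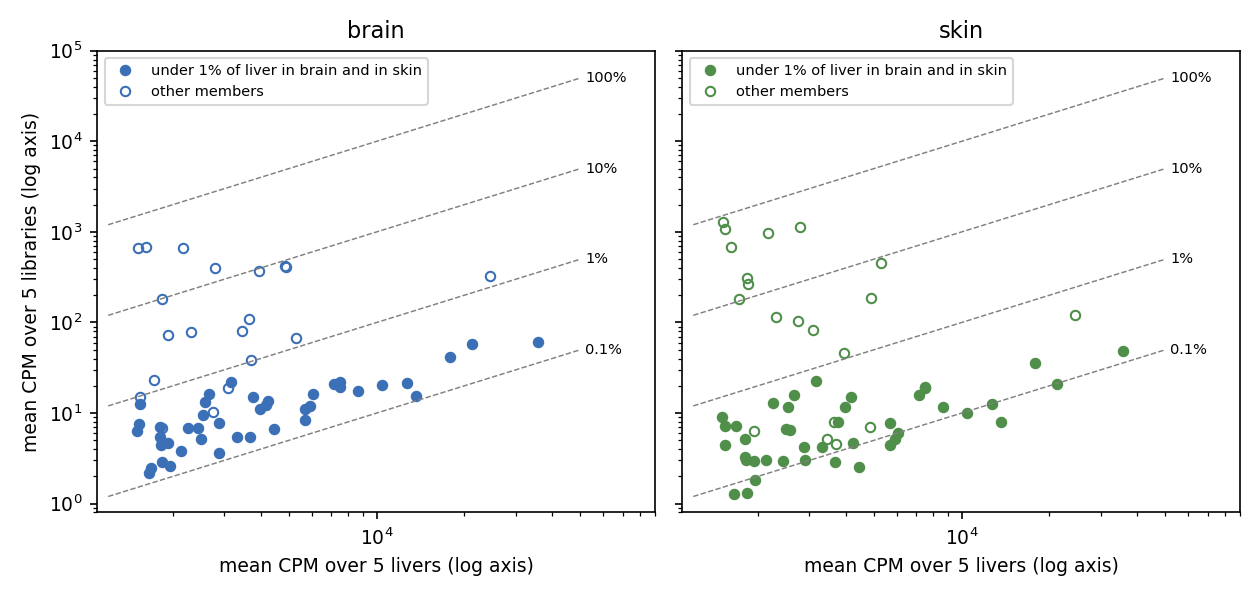
Mean level of each member in brain (left) and skin (right) against its mean level in liver, each over 5 libraries, in CPM on log axes. Filled points are the 42 members under 1% of liver in both tissues and open points the other 20; dashed lines mark 0.1%, 1%, 10% and 100% of the liver level, and the liver level of the filled points spans 23.8-fold.

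The spread of the members between livers lay above that of the other entries of the 100 highest, those shared with brain or skin, and near that of liver entries in general. The coefficient of variation (CV, the SD as a percentage of the mean) of CPM over the 5 livers had a median of 26.8% over the members, with an interquartile range from 17.8% to 41.6%. It was 13.9% for the 38 entries of the 100 highest shared with brain or skin, 24.3% for the 938 other entries among the 1000 highest of liver, and 29.8% over the 12720 entries above 1 CPM in liver. These medians are descriptions over entries, with no test. The highest liver was at least 2 times the lowest for 29 of the 62 members and at least 5 times the lowest for 6.

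The widest spread was that of Nofu_gene_3_0009596 (ENSDARG00000033227), with a CV of 115%. It stood at 7789 CPM in liver 10, 1939 in liver 11, 587 in liver 13, 1637 in liver 14 and 936 in liver 15. Liver 10 alone was high, and the highest liver was 13.3 times the lowest. Nofu_gene_3_0017689, described above, came next with a CV of 75.9%, followed by Nofu_gene_3_0018968 with 75.3%, Nofu_gene_3_0000506 with 60.7% and Nofu_gene_3_0008355 with 57.9%. At the other end, Nofu_gene_3_0006563 (ENSDARG00000037281) had a CV of 5.19% and stood at 5748, 6016, 5788, 5497 and 5250 CPM in livers 10, 11, 13, 14 and 15. Nofu_gene_3_0015522 (ENSDARG00000021208) had a CV of 5.27% at 1887, 1979, 1837, 1753 and 1747 CPM. Nofu_gene_3_0006090 (8.77%), Nofu_gene_3_0009399 (8.90%) and Nofu_gene_3_0003474 (10.8%) were the next most even members.

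Liver 15 stood at an end of the range most often, being the lowest of the 5 for 31 members and the highest for 20. Liver 13 was the lowest for 14 and the highest for 9, liver 10 the lowest for 6 and the highest for 16, liver 11 the lowest for 2 and the highest for 14, and liver 14 the lowest for 9 and the highest for 3. Liver 15 was lower than the mean of the other livers by at least 2 times for 12 members, and liver 13 for 11. The median log2 ratio of liver 15 over the mean of the others was -0.20 over the members, against 0.31 over all entries above 1 CPM. Liver 15 also had the highest scaling factor of the livers, 0.726 against 0.546 to 0.604 in the others.

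Part of this pattern came from 10 members that moved together over the livers, a group chosen after its values were seen. Grouping the members so that each pair within a group had a correlation of at least 0.9 in log2 CPM over the 5 livers gave 16 groups of 2 or more. The largest held 10 members, the next 4, and the rest 2 or 3. The 10 were Nofu_gene_3_0000019, Nofu_gene_3_0002522, Nofu_gene_3_0003408, Nofu_gene_3_0003409, Nofu_gene_3_0004066, Nofu_gene_3_0004069, Nofu_gene_3_0004489, Nofu_gene_3_0005701, Nofu_gene_3_0005703 and Nofu_gene_3_0018634. In CPM all 10 were lowest in liver 13, and 9 were highest in liver 15, the exception, Nofu_gene_3_0004489, being highest in liver 10. In CPM the highest liver was 3.51 to 5.70 times the lowest. Which liver is highest depends on the scaling. Liver 15 had a larger TMM factor than liver 10, 0.726 against 0.559. With TMM, liver 10 would be the highest for most of the 10, Nofu_gene_3_0000019 among them. Liver 15 would stay the highest for Nofu_gene_3_0018634, Nofu_gene_3_0002522 and Nofu_gene_3_0003408. The lowest correlation of any pair was 0.92 and the median 0.98, against a median of 0.23 among the other members. With 5 livers and a group picked by these correlations, these values describe the choice.

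Summed, the group of 10 took 6.91% of the counts of liver 10, 4.34% of liver 11, 2.03% of liver 13, 5.42% of liver 14 and 9.31% of liver 15. The other 52 members took 29.5%, 28.5%, 26.9%, 27.1% and 18.9% in the same order. As a share of counts, liver 15 was thus the highest for the group and the lowest for the other members, 31 of which were lowest there. The group made up 7.0% of the members' counts in liver 13 and 33.0% in liver 15. The group rested on liver 13: without it the largest group held 8 members, none of them from the 10, and at most 5 of the 10 stayed in one group. Without liver 15 the largest group held 9 members, 7 of them from the 10.

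**Figure D3:**
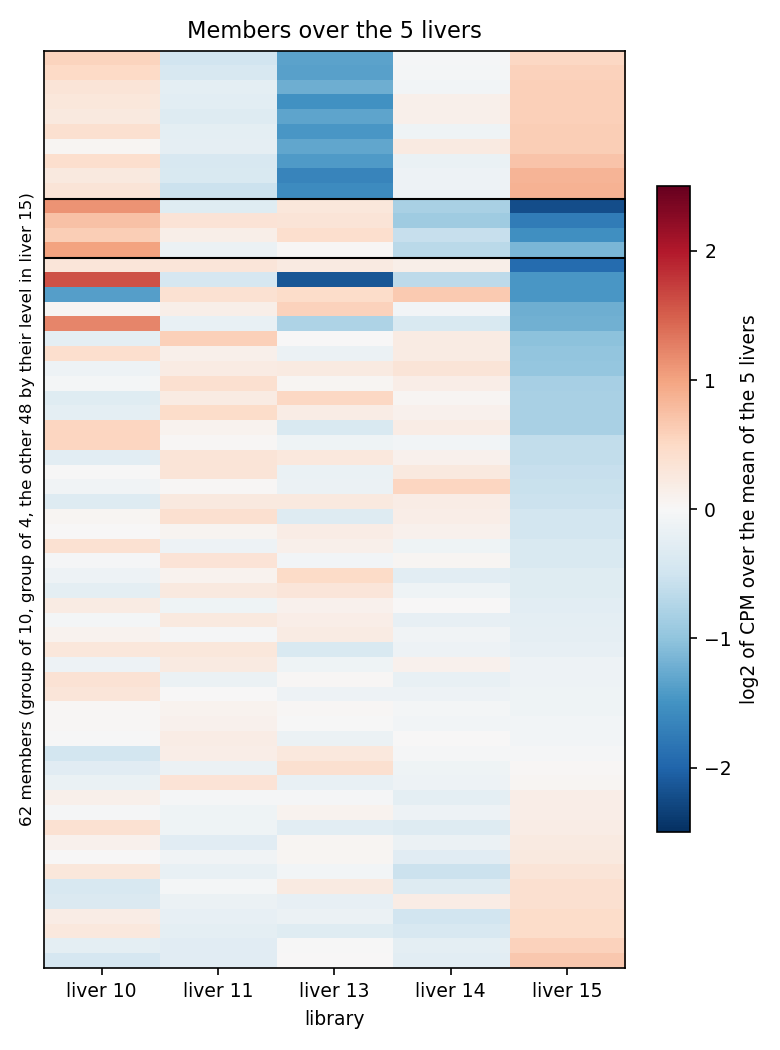
Each member's level in each liver as log2 of CPM over its mean over the 5 livers, with red above and blue below the mean. The upper block holds the group of 10, all lowest in liver 13, the next block the group of 4, all lowest in liver 15, and the lower block the other 48 members in order of their level in liver 15.

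In brain and skin, which the grouping did not use, the 10 entries also stood in a common order. Their pairwise correlations had a median of 0.94 over the 5 brains, against 0.58 among the other members, and 0.97 over the 5 skins, against 0.57. The lowest correlation of a pair was 0.71 in brain and 0.86 in skin. The sets compared are unlike. All 10 lay under 1% of liver in brain and skin, while the other members include the 20 above 1%. No value is given for equally low members alone, so the common order may not be particular to the group. Outside it, Nofu_gene_3_0006517 and Nofu_gene_3_0006518 were also both highest in brain 13 and skin 14, and lowest in brain 15 and skin 6. The sum of the group of 10 was 0.0346% of brain 10, 0.0107% of brain 11, 0.0202% of brain 13, 0.00739% of brain 14 and 0.00424% of brain 15. Brain 10 was highest for 9 of the 10 entries and brain 15 lowest for all 10. Brain 15 was not low for the group alone. The median of the other 52 members was also lowest there, at 0.271% of the liver mean against 0.323% to 0.506% in the other brains. In skin the sum was 0.00640% of skin 5, 0.00431% of skin 6, 0.0182% of skin 7, 0.0256% of skin 13 and 0.0169% of skin 14, and skin 13 was highest for all 10. In shares of counts, the order of the libraries in brain and skin was not that of the livers with the same number. Liver 15 was the highest of the livers and brain 15 the lowest of the brains. Liver 13 was the lowest of the livers and skin 13 the highest of the skins. With TMM scaling the sum of the group would still be highest in liver 15. Taken singly, most of the 10 entries would then be highest in liver 10, as 9 of them were in brain 10. The entries Nofu_gene_3_0018634, Nofu_gene_3_0002522 and Nofu_gene_3_0003408 would stay highest in liver 15. Whether these common orders come from cells of the tissues or from RNA of another source was not tested.

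**Figure D4:**
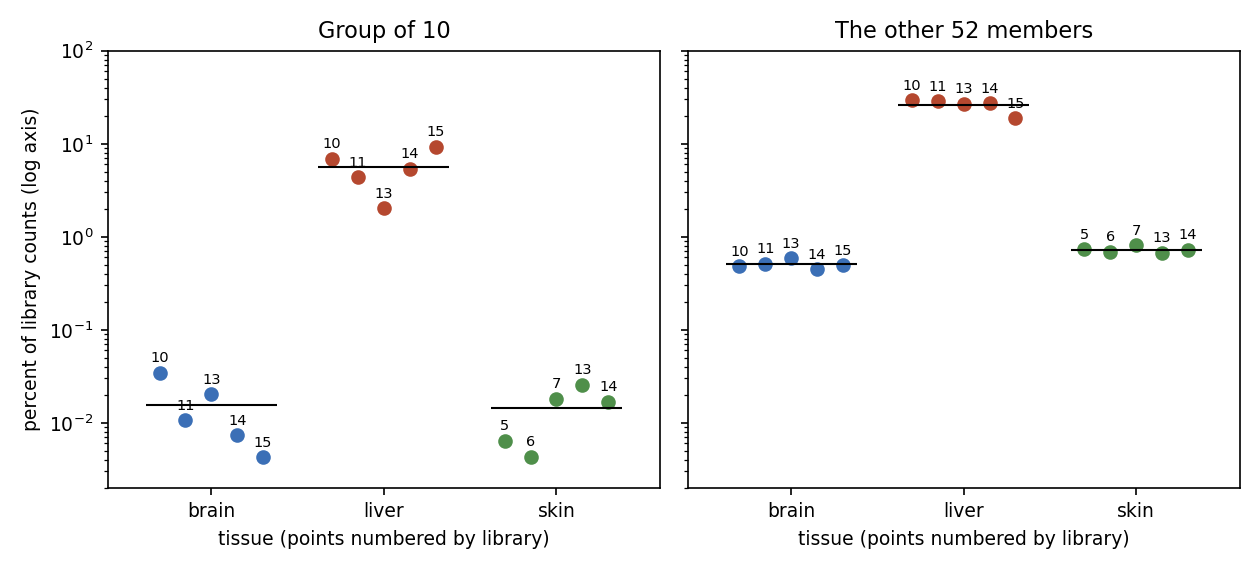
Share of the library's counts, in percent on a log axis, taken by the group of 10 (left) and by the other 52 members (right) in each library, with bars at the tissue means. In liver the group of 10 runs from 2.03% in liver 13 to 9.31% in liver 15, and the other 52 members from 18.9% in liver 15 to 29.5% in liver 10.

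A smaller group of 4, also chosen after its values were seen, ran from high in liver 10 to low in liver 15. Nofu_gene_3_0005026 stood at 4434, 3211, 3855, 1949 and 1002 CPM in livers 10, 11, 13, 14 and 15, and Nofu_gene_3_0017628 at 4541, 3490, 3414, 1478 and 820 CPM. Nofu_gene_3_0018968 stood at 4911, 1842, 2763, 1281 and 486 CPM and Nofu_gene_3_0000506 at 3026, 1353, 1536, 939 and 679 CPM. All 4 were highest in liver 10 and lowest in liver 15, and the lowest correlation of a pair was 0.91. Outside the liver not every pair kept a common order, the lowest pairwise correlation being -0.06 in brain and -0.87 in skin. In brain all 4 were lowest in brain 15, as were many members outside this group. Nofu_gene_3_0000506 was highest in brain 11 and the others in brain 10.

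Which of brain and skin was higher was not itself a criterion for members, and this difference was tested. The rule did use both levels as upper limits. It left out 22 abundant liver entries shared with the highest of brain and 31 shared with those of skin, 15 of them in both. More entries high in skin than high in brain were thus removed. The members' calls per direction and their median fold change depend in part on this choice. With edgeR's quasi-likelihood test and Benjamini-Hochberg adjustment over all 16611 entries tested, 9 members were higher in brain and 14 were higher in skin at an adjusted p under 0.05, and 39 were not called. Over all entries tested, 34.7% were called higher in brain, 35.3% higher in skin and 69.9% in either direction, against 37.1% of the members in either direction. All 62 members passed the filter on low counts, also when it was applied to brain and skin samples alone. The median log2 fold change of brain over skin was -0.26 for the members and 0.03 for all entries. Of the 9 members higher in brain, 6 differed at least 4-fold and 7 had every brain above every skin. Of the 14 higher in skin, 8 differed at least 4-fold and 12 had every skin above every brain. The shares of all entries tested that differed so are not given, so these counts describe the members alone.

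The direction of the small differences depended on how the libraries were scaled. TMM scaling gave brain factors from 1.61 to 1.79 and skin factors from 0.898 to 1.18. Scaled by library totals alone, the median over all entries moved from 0.03 to 0.76 and that of the members from -0.26 to 0.46, and 17 members changed sign, among them 2 called higher in skin under TMM, Nofu_gene_3_0012359 and Nofu_gene_3_0008882. The calls then were 20 members higher in brain and 10 higher in skin. Members higher in brain were 39.1% of the called members with TMM and 66.7% without it, and over all entries these shares were 49.6% and 70.4%. All 9 members higher in brain under TMM were also called without it, and 10 of the 14 higher in skin were.

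The called members lay mostly among those with a clear level outside the liver. Of the 20 members above 1% of liver in brain or skin, 18 were called, 7 higher in brain and 11 in skin. Of the 42 members under 1% in both tissues, 5 were called, 2 higher in brain and 3 in skin, and their log2 fold changes lay between -2.25 and 0.84. This division uses the brain and skin levels themselves, so it is a description. None of the group of 10 was called (0 of 10), and 2 of the group of 4 were higher in skin.

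The 2 members of largest fold in each direction, among those called with no overlap between brain and skin, are given here as TMM-scaled CPM. Nofu_gene_3_0018984 (ENSDARG00000008200) stood at 8.82, 8.50, 8.42, 10.00 and 8.77 in brains 10, 11, 13, 14 and 15 and at 868, 1639, 955, 1154 and 806 in skins 5, 6, 7, 13 and 14. Every skin was far above every brain: brain over skin came to -6.93 on the log2 scale (SE 0.26), and edgeR's adjusted p was 4.17e-12. Nofu_gene_3_0006125 (ENSDARG00000039743) stood at 3.48, 3.79, 5.98, 4.11 and 2.90 in brain and at 286, 322, 165, 278 and 287 in skin, with skin 7 below the other skins. Brain over skin came to -6.05 (log2, SE 0.29), with an adjusted p of 2.97e-11 in edgeR. In the opposite direction, Nofu_gene_3_0004065 (ENSDARG00000010312) stood at 144, 248, 381, 283 and 199 in brain and at 7.89, 3.52, 7.86, 6.05 and 8.39 in skin. It was higher in brain by 5.22 on the log2 scale (SE 0.35), with an adjusted p of 1.28e-09 in edgeR. Nofu_gene_3_0009399 (ENSDARG00000022372), one of the most even members over the livers, stood at 29.5, 60.3, 68.8, 49.4 and 30.8 in brain and at 3.70, 2.08, 6.88, 5.21 and 7.02 in skin, which made brain higher by 3.26 (log2, SE 0.35), with an adjusted p of 3.14e-07 in edgeR. In CPM, every liver was above every brain and skin for these entries except Nofu_gene_3_0018984, whose livers and skins overlapped.

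**Figure D5:**
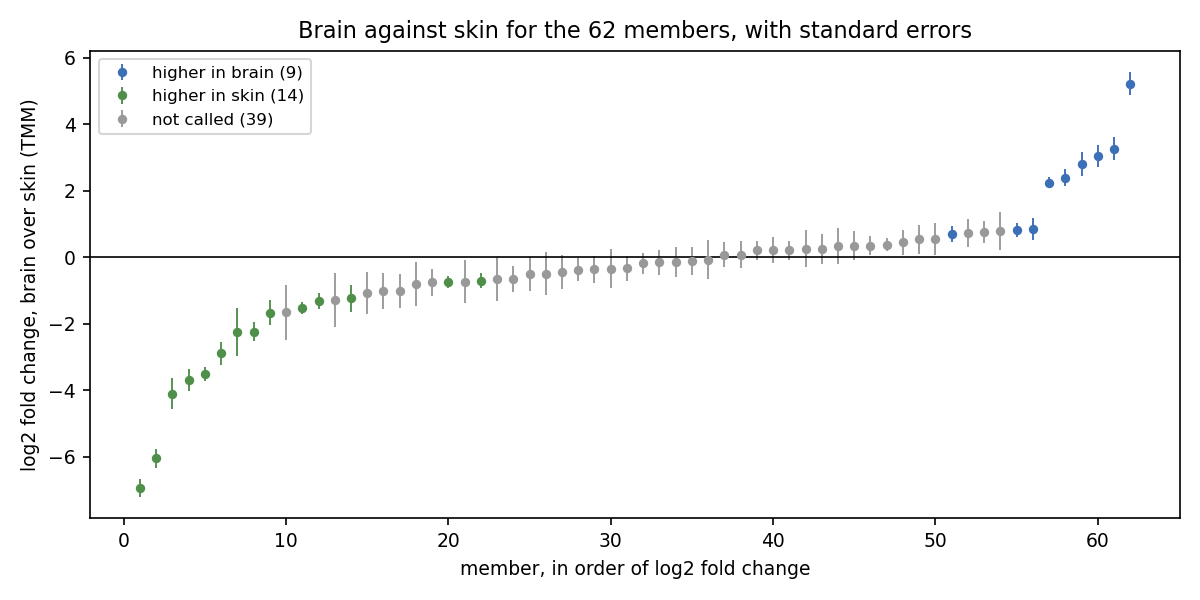
Log2 fold change of brain over skin for the 62 members, in order of size, with bars of 1 standard error, from edgeR with TMM scaling. Blue points are the 9 members called higher in brain, green points the 14 called higher in skin and grey points the 39 not called.

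Skin 7 held 4 members at 4 or more times their mean level over the other skins. Nofu_gene_3_0007601 stood at 498 CPM in skin 7 and between 12.5 and 27.4 CPM in the other skins, and Nofu_gene_3_0018968 stood at 50.3 CPM against 1.15 to 5.15. Nofu_gene_3_0008511 stood at 24.6 CPM in skin 7 against 0.671 to 7.26 elsewhere, and Nofu_gene_3_0006415 at 20.8 CPM against 0.911 to 5.47. Without skin 7 the log2 fold change of Nofu_gene_3_0007601 turned from -1.28 (SE 0.81, edgeR adjusted p = 0.169) to 1.22 (SE 0.26, edgeR adjusted p = 0.000582). That of Nofu_gene_3_0008511 went from -2.25 (SE 0.72, edgeR adjusted p = 0.0114) to -0.87 (SE 0.49, edgeR adjusted p = 0.131), so its call rested on skin 7. The members' calls without skin 7 were 10 higher in brain and 13 higher in skin. Brain 10 likewise held 4 members at 4 or more times their mean over the other brains, all from the group of 10 (Nofu_gene_3_0018634, Nofu_gene_3_0004489, Nofu_gene_3_0005701 and Nofu_gene_3_0005703). The share of all catalogue entries raised so in skin 7 or brain 10 is not given. Whether these counts are unusual for the members was therefore not tested.

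Some features of the members were not used by the rule. In the deposited annotation, 56 of the 62 (90.3%) were best bidirectional hits, that is, the catalogue entry and the zebrafish gene were each other's closest match, against 74.1% of all entries and 33 of the other 38 abundant liver entries (86.8%). The members carried 61 identifiers, since Nofu_gene_3_0002458 and Nofu_gene_3_0002459 share ENSDARG00000012694. How reads matching both were counted is not given in the sources used here, so the split between them is uncertain. An identifier was shared with some other catalogue entry by 11 members (17.7%), against 28.1% of the catalogue. That share is not given for the other 38 abundant liver entries, so it may not be particular to the members.

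Members often had neighbouring catalogue numbers. Of the 62, 17 (27.4%) had a number next to that of another member, in 8 runs, the longest being Nofu_gene_3_0008881, Nofu_gene_3_0008882 and Nofu_gene_3_0008883. Of the 18249 entries that were not members, 90 (0.493%) were next to one, as was 1 of the other 38 abundant liver entries. What the order of the numbers reflects is not given in the sources used here, so neighbouring numbers are not read as neighbouring genes.

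The lengths behind the RPKM values ran from 541 to 11779 bases over the members, with a median of 2067. The median was 2372 over the catalogue and 1768.5 over the other 38 abundant liver entries. The group of 10 was short, from 922 to 1701 bases with a median of 1452. Exactly 2000 bases was the length of 7 members (11.3%) and of 740 of the 18115 entries with a length (4.09%), while the next most common length, 3700, belonged to 131 entries. Why so many entries have that length is not given, so the RPKM values of these 7, Nofu_gene_3_0006506 and Nofu_gene_3_0008339 among them, may not be per true length.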

How the data were processed

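RNA-seq of 15 killifish samples (brain, liver, skin, 5 each) was analysed. The authors deposited read counts per catalogue entry and per genome gene model, treated as raw because they are whole numbers with different totals, and RPKM values for both. The authors also deposited a best-bidirectional-hit flag per entry. Tools named in the submitters' processing notes are featureCounts 1.4.3-p1, TopHat2 2.0.6, Bowtie and CASAVA 1.8.2. The sources used here do not state their roles, the genome build, annotation, strand setting or treatment of multi-mapping reads, so near-identical and overlapping genes are uncertain. The deposited RPKM sheet holds 60 further columns of no sample analysed here, which were not used.

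Members were chosen by mean catalogue CPM, and the members, groups and lists were chosen with earlier results of these data known. Counts were fitted with edgeR 4.0.16 (R 4.3.3): filterByExpr with a count minimum of 10 left 16611 entries, followed by TMM scaling, one quasi-likelihood fit of all 15 samples with a term per tissue, and Benjamini-Hochberg adjustment at 0.05. The SE is the fold change divided by the square root of F. The fit was also run on simulated counts with a common profile for all tissues, apart from a set of entries changed in brain. That run holds no broad difference in library composition, so it could not test the choice of scaling. Only brain against skin was tested. Entry lengths were derived from the counts and RPKM values, and recovered 100% of the RPKM values to a relative tolerance of 1e-06.

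By rule the text names the 10 members of highest liver CPM, the 5 most and 5 least variable over the livers, 2 per direction for brain against skin among called members without overlap, and 3 on each side of each rank limit. Other entries were named after their values were seen. No 2 libraries were identical, and within a tissue any pair differed by more than sampling noise (lowest chi-square per degree of freedom 37.3). Where nothing states that samples came from separate fish, p-values measure the spread between these samples. Alternatives were DESeq2 1.42.0, limma 3.58.1 on log2(RPKM + 1), other scalings, filters, rank limits and tables, each replicate left out, and a replicate block. No sequence is shown.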

Additional observations from a re-analysis of the deposited data

Results flagged for a closer look

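In 39 sets of 5 libraries (25 members in liver, 4 members in brain and skin, and the shares of all members and of the group of 10 in each tissue), 4 had a library farther from the rest than Dixon's 95% critical value of 0.71 for 5 samples. Chance flags about 1 in 20 independent sets, which is no yardstick here, since some members were included for their wide spread or for moving together, and the first 2 below are among the 5 of widest spread. Nofu_gene_3_0009596 stood at 7789 CPM in liver 10, with the next liver at 1939 CPM, a gap of 0.812 of the whole range. Nofu_gene_3_0017689 stood at 31711 CPM in liver 10, with the next liver at 12081 CPM (0.762). The TMM-scaled level of Nofu_gene_3_0018984 was 10.0 in brain 14, with the next brain at 8.82 (0.749). Nofu_gene_3_0006125 stood at 165 in skin 7 on the same scale, with the next skin at 278 (0.720).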

How the results depend on the processing

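Of 238 alternative values, 226 kept their direction and their side of the threshold or stayed within 1.5 times or 1 SD of the value reported, 12 moved and 0 reversed. A reversal could be counted only for the fold changes of the 4 members named for brain against skin, picked for their large folds. Sign changes of other members, given above, lie outside this count. Leaving out 1 of 5 libraries cannot move a mean share by 1 SD of the 5, so those shares were kept in advance. For the median CV the SD was the spread of the CV over the members, a wide limit for a median. The 226 is therefore no measure of how stable the results are. The largest group kept its size by this count without liver 13 (8 members), but shared 0 members with the group of 10. Members called higher in brain rose from 9 to 20 both with library totals alone and with limma on RPKM. Over all entries these settings gave 9022 and 9293 calls higher in brain and 3799 and 3716 higher in skin. Taking the 50 highest entries gave 37 members (36 shared) and the 200 highest gave 102 (57 shared). Without the 10 most abundant members the share was 15.8% in liver and 0.459% in brain. In the genome table the same rule, added after seeing the data, gave 63 gene models with 0.282% of brain and 0.225% of skin counts, so that their order turned. Ranking by RPKM gave 45 members, 36 of them shared.

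Leaving out one replicate gave 61 to 63 members, 8 to 10 calls higher in brain, 13 to 19 higher in skin and a liver share of 30.7% to 32.7%. Same-numbered samples correlated at 0.0459 to 0.301 in 9 pairs, 5 of them over 0.1. Among samples of different number, liver 14 and skin 7 reached 0.317. Of the brains, 4 of 5 were closest to the liver of their own number, and 4 of 5 livers to the brain of theirs. No label states that samples of one number came from one fish, and these values do not settle it. The main fit has no pairing and would ignore one if present. With a replicate block the calls were 7 members higher in brain (6 shared) and 15 in skin (11 shared), and 4701 and 4807 over all entries. DESeq2 called 11 and 14 members. Levels of the members in the genome table were not run, since the identifiers could not be paired. The limits are that no entry has a name, that 5 livers carry the groups, that the lowest brain and skin values rest on few reads, and that the direction of small brain against skin differences depends on the scaling.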

Other observations

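Outside the members, 22 other entries, 0.174% of those above 1 CPM in liver, followed the group of 10 over the livers, with a correlation of at least 0.95 with its mean and a slope near 1 on the log2 scale. They held 0.287% of the liver counts, none was among the 100 highest of liver (0 of 22), and 16 were under 100 CPM. The most abundant was Nofu_gene_3_0005702 at 875 CPM, whose number lies between those of Nofu_gene_3_0005701 and Nofu_gene_3_0005703 of the group. Nofu_gene_3_0004490 at 558 CPM, Nofu_gene_3_0003407 at 317 CPM and Nofu_gene_3_0003410 at 25.1 CPM also had a number next to that of an entry of the group, so that 4 of the 22 did. The share of other entries next to the group is not given, so nothing is read from this count. Nofu_gene_3_0003410 carries the same zebrafish identifier, ENSDARG00000007276, as Nofu_gene_3_0005703. These entries were picked by the correlation itself, over 5 livers, and no test was made.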
